A study of Mus musculus with 28 samples.

Results

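Medullary thymic epithelial cells of the mTEChi subset were compared between thymi lacking both Hnf4 genes (4 libraries) and their controls (4 libraries), which are 8 of the 28 bulk RNA-seq libraries of the series and were chosen by the genotype and subset in their labels. All mice were C57BL/6 and carried 1 copy of Foxn1-Cre, a recombinase driven in thymic epithelium. Double mutants were Hnf4a fl/fl and Hnf4g -/-, so Hnf4a was removed where Cre acts and Hnf4g was absent from the germline, in every tissue. Controls were Hnf4a fl/+ and Hnf4g +/-, so they kept 1 intact allele of each gene, and no mTEChi library had all alleles intact. Each library was made from 1000 sorted cells. Age and sex are not stated in the labels. The labels also leave unsaid whether each library had its own mouse, and p-values therefore rest on library spread that may be technical.

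The medulla of the thymus shows developing T cells the antigens of peripheral tissues. Cells of the mTEChi subset are its mature epithelium, marked by high MHC class II and CD80, and most of them transcribe Aire, a regulator that releases many tissue-restricted genes at low level. Some medullary cells take on programs of peripheral cell types, among them enterocytes, microfold cells and tuft cells. HNF4A and HNF4G are paralogous nuclear receptors that bind DNA as dimers. In gut and liver they maintain genes of the brush border (the microvilli of absorptive cells), of lipid transport and of blood plasma proteins.

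Total counts were 5344084 to 8342583 reads per library, with 28475 to 31055 genes detected. Aire was transcribed in both genotypes. It was at 1398, 1746, 2290 and 1584 CPM (reads scaled by TMM-adjusted library size) in the control libraries 1 to 4. In the double mutants it was at 2244, 1921, 1376 and 2285 CPM (log2 fold change 0.16 with SE 0.17, edgeR adjusted p = 0.798). Of the 18 genes of an Aire-stage list 0 passed the test, against 0.635% of all tested genes. At that share the count cannot show that they were unchanged. The list summed to 55497 to 58584 CPM in control and 49565 to 56108 CPM in double-mutant libraries. RNA of other cells was present in both genotypes. The T-cell marker Cd3e (at most 5.27 CPM) and the endothelial marker Pecam1 (at most 19.3) were low. Cd4 was at 9.06 to 27.4 CPM in control and 14.8 to 44.6 CPM in double-mutant libraries. The antibody gene Ighm reached 126 CPM, the collagen gene Col1a1 85.9, the cortical protease Prss16 83.0 and the macrophage receptor Csf1r 56.7. Many of the genes described here also lie at such levels. The summed level of 10 B-cell genes was 239 to 295 CPM in control and 299 to 332 CPM in double-mutant libraries, which did not overlap, although none of the 10 passed the test. Its part in the results was not tested. Summed levels of the thymocyte, myeloid (2390 to 3026 against 2305 to 2491 CPM), fibroblast, endothelial and erythroid lists overlapped between the genotypes, as did the share of mitochondrial counts (1.43% to 2.06% against 1.73% to 2.03%). Ribosomal protein genes took 1.52% to 1.81% of control counts and 2.78%, 2.54%, 1.77% and 2.17% in double-mutant libraries 1 to 4, so that replicate 3 alone lay within the control range.

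The targeted genes were both low. Hnf4a was at 3.04, 6.85, 1.06 and 7.71 CPM in control libraries and at 4.80, 1.58, 7.29 and 3.41 CPM in double mutants, from 7 to 65 reads per library, so the groups overlapped (log2 fold change -0.12 with SE 0.60, edgeR adjusted p = 0.964). Hnf4g was at 23.0, 16, 20.5 and 23.4 CPM in controls and at 6.88, 5.44, 5.86 and 13.5 CPM in double mutants. All 4 mutant libraries lay below all controls, but the difference missed the threshold (log2 fold change -1.38 with SE 0.31, edgeR adjusted p = 0.0862). Without double-mutant replicate 4, the highest of its group, it passed (log2 fold change -1.77, adjusted p = 0.0127). It passed in no other leave-one-out fit. Which exons were deleted is not stated in the labels, and the deposited counts are per gene and not per exon. These values therefore do not test the genotypes.

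Removal of both genes went with lower levels of a set of gut and liver genes. Of 18413 genes tested, 117 were called in double-mutant mTEChi at an adjusted p under 0.05 by edgeR (0.635% of those tested), 110 lower (0.597%) and 7 higher (0.038%). The 110 had a median fall of 1.43 on the log2 scale, and the smallest was 0.55. Of them, 76 changed by more than 2-fold and 28 by more than 4-fold. The libraries of the genotypes did not overlap for any of the 110. Non-overlap alone held for 673 lower genes (3.66%) and 531 higher genes (2.88%). Without double-mutant replicate 3 the higher genes numbered 62 and without double-mutant replicate 1 they numbered 12. The lower genes numbered 64 without control replicate 4, and 69 without control replicate 3 or double-mutant replicate 1. Calls for 58 of the 110 and 4 of the 7 held in all 8 fits that left out 1 library. In bulk libraries, fewer cells of a kind and less RNA per cell cannot be told apart.

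**Figure D1:**
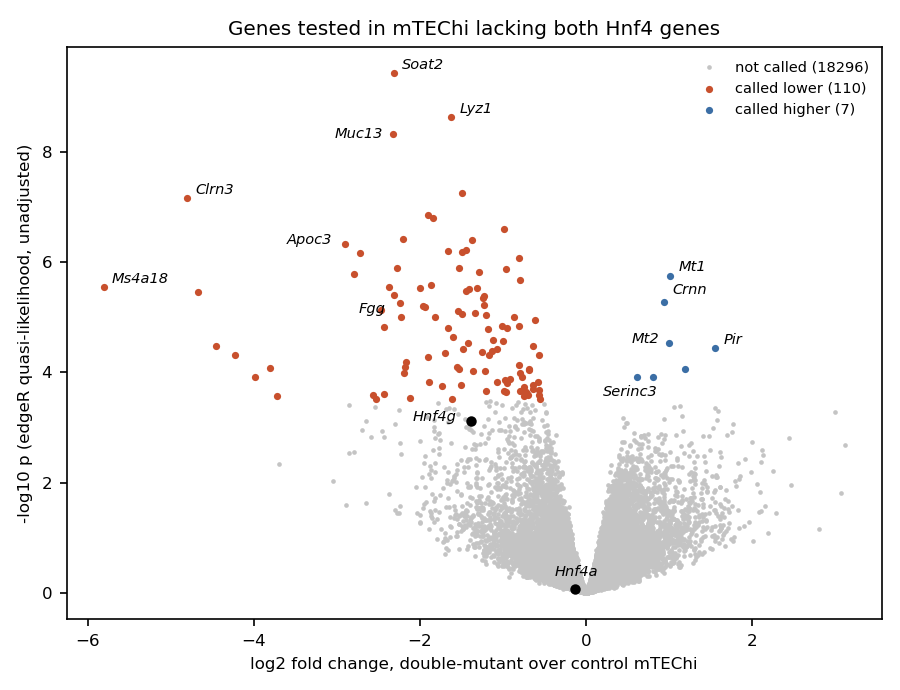
Each point is 1 of the 18413 genes tested, with the log2 fold change of double-mutant over control mTEChi on the x axis and -log10 of the unadjusted edgeR p on the y axis; red marks the 110 genes called lower, blue the 7 called higher, and black the 2 targeted genes. Called genes lie mostly on the left, with Soat2, Lyz1 and Muc13 at the smallest p, and Hnf4a sits near 0.

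The brush border held the largest number of falling genes of the 29 lists examined. Of its 31 tested members, 8 fell, none rose, and 27 had a negative log2 fold change (median -0.54, against 0.01 over all tested genes). Clrn3 (chromosome 7, 135511466 to 135528654), a tetraspan membrane protein of the clarin family, was at 62.2, 55.3, 63.5 and 66.5 CPM in control libraries and at 1.28, 1.23, 0.781 and 5.25 CPM in double mutants (log2 fold change -4.81 with SE 0.42, edgeR adjusted p = 0.00026). Muc13 (chromosome 16, 33794037 to 33819934), a membrane mucin of the intestinal surface, was at 69.8, 75.9, 72.8 and 99.9 CPM against 14.6, 17.7, 14.5 and 16.8 CPM (log2 fold change -2.33 with SE 0.16, adjusted p = 2.91e-05). Every mutant library was far below every control for both genes, and the mutant values of Muc13 differed little among themselves.

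Microvilli are held at even spacing by a complex of 2 cadherins and their cytoplasmic partners. Not all of its members were called. Cdhr5, one of the cadherins, went from 159, 137, 169 and 191 CPM in controls to 33.0, 60.0, 40.2 and 43.5 CPM in double mutants (log2 fold change -1.90 with SE 0.18, edgeR adjusted p = 0.000417). Its partner cadherin Cdhr2 was at 32.9 CPM (SD 13.5, n = 4) against 12.7 (SD 5.00, n = 4) without overlap, and was not called (log2 fold change -1.38, adjusted p = 0.104). Anks4b, a scaffold of the complex, fell from 38.2, 44.7, 53.4 and 38.2 CPM to 5.12, 9.47, 6.90 and 15.2 CPM (log2 fold change -2.24 with SE 0.29, adjusted p = 0.0028). The scaffold Ush1c (28.1 CPM in control, 23.2 in double-mutant cells) and the motor Myo7b (19.3 and 14 CPM) overlapped between genotypes and were not called (adjusted p = 0.679 and 0.536). Thus 2 of these 5 genes passed the test. Calml4, a light chain of the complex outside the list, was named after its values were seen. It fell from 80.9 to 29.7 CPM (log2 fold change -1.44 with SE 0.15, edgeR adjusted p = 0.000854), and its call held in all 8 leave-one-out fits.

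Genes of the actin core and of the apical membrane fell in part. Vil1, the actin bundler villin, fell from a mean of 66.9 CPM (SD 10.9, n = 4) to 18.7 (SD 3.29, n = 4; log2 fold change -1.84 with SE 0.17), and Eps8, which caps actin at microvillar tips, from 54.9 to 19.4 CPM (log2 fold change -1.49 with SE 0.21). Mep1a, a subunit of the protease meprin, fell from 157 to 54.6 CPM, and the liver-intestine cadherin Cdh17 from 236 to 135 CPM (log2 fold change -0.80 with SE 0.12). The second meprin subunit, Mep1b, was at 26.5 against 20.4 CPM with overlapping libraries (adjusted p = 0.543 by edgeR). The actin bundlers Espn (18.3 and 18.5 CPM) and Pls1 (95.9 and 82.7 CPM) also overlapped and were not called. Myo15b, a myosin-like gene outside the list and chosen after its values were seen, went from 51.4, 63.7, 81.8 and 83.4 CPM to 10.9, 14.6, 13.9 and 21.3 CPM (log2 fold change -2.21 with SE 0.23, adjusted p = 0.000745).

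Promoters of the genes that fell were searched for the HNF4-type half-site pair CAAAGNNCA on both strands, in RefSeq windows of 250 bases before to 50 bases after each start site (build GRCm38.p6). This motif was chosen after the 2 full versions CAAAGTCCA and CAAAGGTCA, which it contains, had been found in 1 of the lower genes each. Of the 110 lower genes, 87 had a window and 11 of those held the motif (12.6%), as did 902 of the 13566 tested genes with a window (6.65%) and 0 of the 7 higher genes. Over all promoters of the table it was in 7.27% of genes. A match describes letters only, and not a bound site. The 250 bases before the start are shown for 4 genes that fell strongly, written 5′ to 3′ on the gene's strand with the match in capitals. They lie at chr7:135528655-135528904 (minus strand, Clrn3), chr16:33794239-33794488 (plus, 1 of 2 start sites of Muc13), chr7:120173608-120173857 (plus, Anks4b) and chr11:83593088-83593337 (minus, Ccl6). The match starts 51 bases before the start site in Clrn3, 186 in Muc13, 59 in Anks4b and 88 in Ccl6, and it is on the opposite strand in the other genes.
Clrn3: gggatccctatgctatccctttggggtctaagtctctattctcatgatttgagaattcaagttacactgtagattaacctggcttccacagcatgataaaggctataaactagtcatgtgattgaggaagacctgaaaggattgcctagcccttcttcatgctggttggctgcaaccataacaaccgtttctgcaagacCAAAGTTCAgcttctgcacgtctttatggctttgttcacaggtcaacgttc
Muc13: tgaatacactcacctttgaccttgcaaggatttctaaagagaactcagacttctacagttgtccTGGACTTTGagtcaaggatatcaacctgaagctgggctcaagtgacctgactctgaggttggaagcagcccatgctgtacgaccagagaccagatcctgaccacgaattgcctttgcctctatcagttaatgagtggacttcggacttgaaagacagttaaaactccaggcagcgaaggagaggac
Anks4b: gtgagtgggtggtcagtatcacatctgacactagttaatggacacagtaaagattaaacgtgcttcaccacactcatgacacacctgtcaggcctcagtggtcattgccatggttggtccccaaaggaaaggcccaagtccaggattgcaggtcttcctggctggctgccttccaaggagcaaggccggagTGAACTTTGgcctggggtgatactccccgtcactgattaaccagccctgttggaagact
Ccl6: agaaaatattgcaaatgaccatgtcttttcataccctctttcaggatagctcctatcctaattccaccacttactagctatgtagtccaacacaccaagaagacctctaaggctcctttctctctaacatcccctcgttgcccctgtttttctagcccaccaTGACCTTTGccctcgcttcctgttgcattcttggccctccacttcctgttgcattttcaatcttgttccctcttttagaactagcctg

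**Figure D2:**
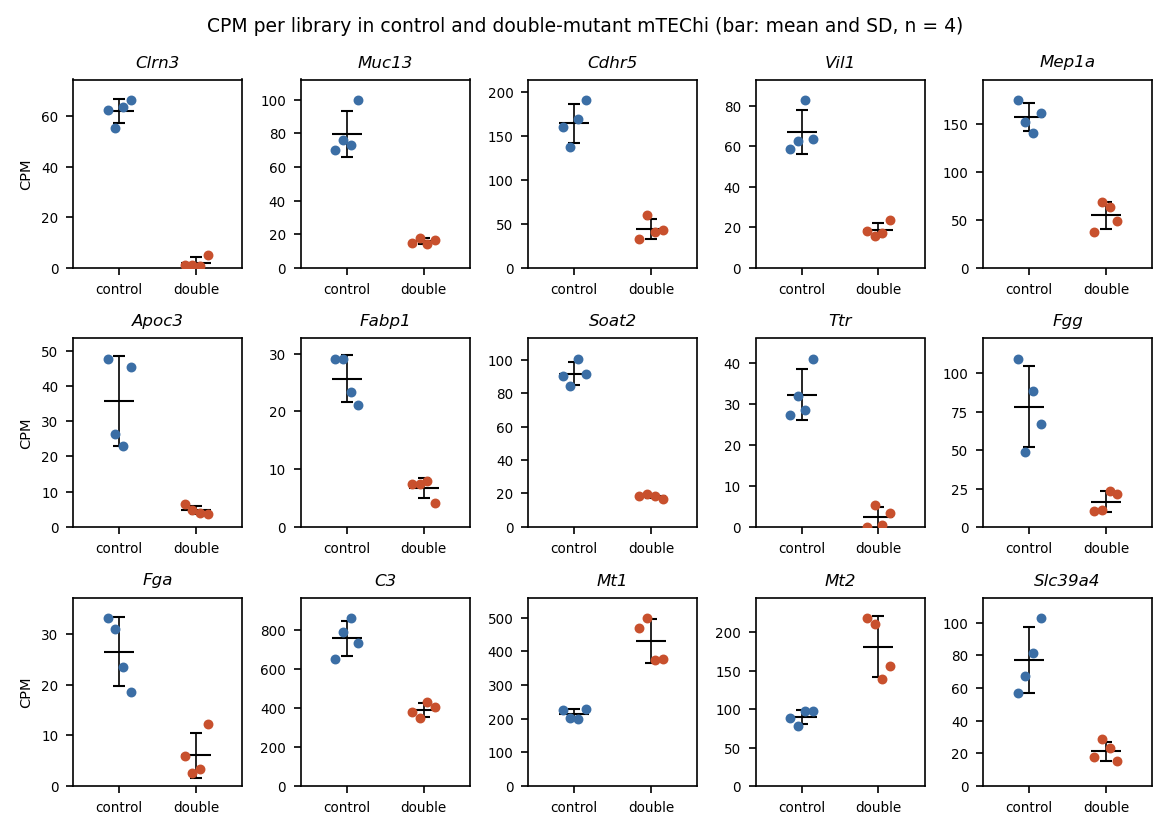
CPM (y axis, from 0) of 15 genes in the 4 control (blue) and 4 double-mutant (red) mTEChi libraries, with the mean and SD as bars. The genotypes do not overlap for any gene shown; Mt1 and Mt2 are the genes that lie higher in double mutants, and Clrn3 in double-mutant replicate 4 stands above the other 3 mutant libraries.

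Part of the lipid handling genes fell. Of 22 tested members of that list, 4 fell, none rose and 20 had a negative log2 fold change (median -0.77). Soat2, which esterifies cholesterol in enterocytes and hepatocytes, had the smallest p of all genes: 90.2, 84.0, 101 and 91.6 CPM in controls against 18.7, 19.8, 18.4 and 16.9 CPM (log2 fold change -2.31 with SE 0.13, edgeR adjusted p = 6.95e-06). It was not in the list. Apoc3, an apolipoprotein of triglyceride-rich particles, fell from 47.8, 26.2, 23.0 and 45.5 CPM to 6.40, 4.91, 4.04 and 3.81 CPM (log2 fold change -2.90 with SE 0.30, adjusted p = 0.000789). Control libraries 1 and 4 were higher than 2 and 3 for Apoc3, while the mutant libraries were all at a few CPM.

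Fabp1, the liver fatty acid-binding protein, fell from 29.1, 29.1, 23.3 and 21.1 CPM to 7.36, 7.37, 7.94 and 4.07 CPM (log2 fold change -1.94 with SE 0.26, edgeR adjusted p = 0.0031). The sterol exporter subunit Abcg5 (35.2 to 15.2 CPM, adjusted p = 0.0213) and Mttp, which loads lipid onto apolipoprotein B (57.3 to 27.3 CPM, adjusted p = 0.03), were called with less margin. Abcg5 was not called when any one of control replicates 2, 3 and 4 and double-mutant replicates 1 and 2 was left out (adjusted p 0.0645 to 0.0905), and nor was Mttp with the same libraries left out (0.0597 to 0.118). Not every apolipoprotein moved: Apoa1 was at 102 CPM (SD 27.7, n = 4) in control and 100 CPM (SD 34.4, n = 4) in double-mutant cells (log2 fold change -0.03 with SE 0.26, adjusted p = 0.981). Apoa4, at 75.5 against 42.1 CPM, had an adjusted p of 0.0564.

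In the list of liver plasma proteins, 4 of 27 tested genes fell and none rose (median log2 fold change -0.36). Selenop and C4bp, outside that list and named after their values were seen, were also called lower. Their calls held in 6 and 4 of 8 leave-one-out fits. Complement C3 fell from 649, 786, 862 and 733 CPM to 376, 348, 428 and 406 CPM (log2 fold change -0.96 with SE 0.11, edgeR adjusted p = 0.0013). Trf, the iron carrier transferrin, fell from a mean of 530 CPM (SD 35.9, n = 4) to 252 (SD 70.7, n = 4; adjusted p = 0.0108). Ttr, the thyroid hormone carrier transthyretin, was at 27.2, 31.9, 28.6 and 41.1 CPM in controls and at 0, 5.44, 0.521 and 3.41 CPM in double mutants (log2 fold change -3.80 with SE 0.66, adjusted p = 0.0198). Its mutant libraries ranged from no read to a clear signal, and the call was lost when any one of control replicates 2, 3 and 4 and double-mutant replicate 4 was left out (adjusted p 0.0506 to 0.0833). Serpina1b, an alpha-1-antitrypsin copy, had 112 reads over the controls and 5 over the double mutants (adjusted p = 0.01) and lost its call without double-mutant replicate 1 (0.0549) and by voom (0.0736), while DESeq2 and a minimum count of 20 gave it no adjusted p.

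The 3 chains of fibrinogen are encoded side by side on chromosome 3, Fgg at 83007724 to 83015049, Fga at 83026076 to 83033627 and Fgb at 83040141 to 83049863. Fgg fell from 110, 48.9, 88.4 and 66.8 CPM to 10.2, 10.7, 23.7 and 21.5 CPM (log2 fold change -2.23 with SE 0.31, edgeR adjusted p = 0.00392). Fga fell from 33.3, 31.0, 23.5 and 18.5 CPM to 5.92, 2.63, 3.25 and 12.3 CPM (log2 fold change -2.12 with SE 0.42, adjusted p = 0.0469). Fgb was at 57.3, 87.5, 11.5 and 78.6 CPM against 7.36, 19.5, 39.6 and 15.8 CPM and was not called (log2 fold change -1.51 with SE 0.54, adjusted p = 0.314). Control replicate 3 was the library in which Fgb was low. Fga was called in only 1 of the 8 fits that left out 1 library, that without double-mutant replicate 4 (adjusted p 0.0688 to 0.134 in the other 7), whereas Fgg held in all 8. These 2 were the called members among the 14 tested genes of the coagulation list, of which 12 had a negative log2 fold change (median -0.82). Proz, coagulation protein Z, was outside the list and named after its values were seen. It fell from 33.3 to 13.2 CPM (log2 fold change -1.34 with SE 0.18, edgeR adjusted p = 0.00362) and held in all 8 leave-one-out fits.

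Metabolic and transport genes fell in smaller numbers. In the xenobiotic list 2 of 26 fell, the carboxylesterases Ces2c (131 to 41.2 CPM, adjusted p = 0.000854 by edgeR) and Ces2e (44.1 to 8.18 CPM, adjusted p = 0.0423), of which Ces2e was not called in 6 of 8 leave-one-out fits (all but those without control replicate 2 or double-mutant replicate 3; adjusted p 0.0691 to 0.136). In hepatocyte metabolism 1 of 25 fell, Pck1, of gluconeogenesis (50.2 to 12.6 CPM, log2 fold change -1.99 with SE 0.25). The single intestinal transporter of 20 to fall was Slc39a4, the zinc importer ZIP4, from 56.7, 67.1, 81.7 and 103 CPM to 17.9, 28.6, 23.0 and 15.4 CPM (log2 fold change -1.87 with SE 0.23, adjusted p = 0.00196). Hsd17b6, a steroid dehydrogenase (26.4 to 5.33 CPM), and the gut lectin Lgals4 (83.5 to 16.2 CPM, log2 fold change -2.37 with SE 0.29) also fell. When the spread was estimated over 16 libraries including mTEClo, Fgg (adjusted p = 0.226), Pck1 (0.0778), Hsd17b6 (0.0636), Trf (0.0977), Abcg5 (0.0534), Ces2e (0.0947) and Fga (0.055) were no longer called.

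None of the 22 tested gut and liver transcription factors was called, against 0.635% of all tested genes, so a count of 0 says little about them. Their log2 fold changes had a median of -0.19 and ran from -1.38 (Hnf4g) to 0.98. In 2 of them, 1 being the targeted Hnf4g, all double-mutant libraries lay below all controls, and in 1 above. Over all tested genes these shares were 3.66% and 2.88%. Cdx1, an intestinal homeobox factor, was at 193 against 170 CPM (log2 fold change -0.19 with SE 0.13), and Gata4 at 16.8 against 14.3 CPM. Both overlapped between genotypes. The levels of these 2 regulators gave no difference beyond the spread of the libraries, which does not show that they were equal.

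Genes that mark mTECs resembling other cells fell in part. Of 14 tested microfold genes, 2 fell: Lyz1, the lysozyme of Paneth cells, from 804, 828, 703 and 782 CPM to 246, 271, 218 and 278 CPM (log2 fold change -1.62 with SE 0.11, edgeR adjusted p = 2.17e-05), and the chemokine Ccl6 from 131, 115, 65.3 and 62.1 CPM to 19.4, 14.2, 14.6 and 8.53 CPM (log2 fold change -2.72 with SE 0.29, adjusted p = 0.000854). Over all tested genes 0.597% were called lower. Of the 14 microfold genes, 13 were also higher in the wild-type entero-hepato gate described below. Neither Lyz1 nor Ccl6 defines microfold cells. Their receptor Gp2 was at 963 CPM (SD 371, n = 4) against 331 (SD 136, n = 4) with overlap (adjusted p = 0.0704), and their regulator Spib at 339 against 441 CPM (adjusted p = 0.558). Of 24 neuroendocrine genes 2 fell, Ddc, the decarboxylase that makes dopamine and serotonin (36.3 to 6.64 CPM, log2 fold change -2.44 with SE 0.35), and Scg5 (82.6 to 41.5 CPM, log2 fold change -0.99 with SE 0.15). The list had 16 negative members and ran up to 1.05. Ddc and Scg5 were also higher in the wild-type entero-hepato gate described below (log2 fold change 2.83 and 1.94). Of the 21 neuroendocrine genes tested there 4 were higher, where 22.7% of all tested genes were. Of the 19 ciliated-cell genes, none was called and 3 had a negative log2 fold change (median 0.66). The keratinocyte, muscle, goblet, acinar, proliferation and cortical lists had no called gene, where 0.635% of all tested genes were called.

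**Figure D3:**
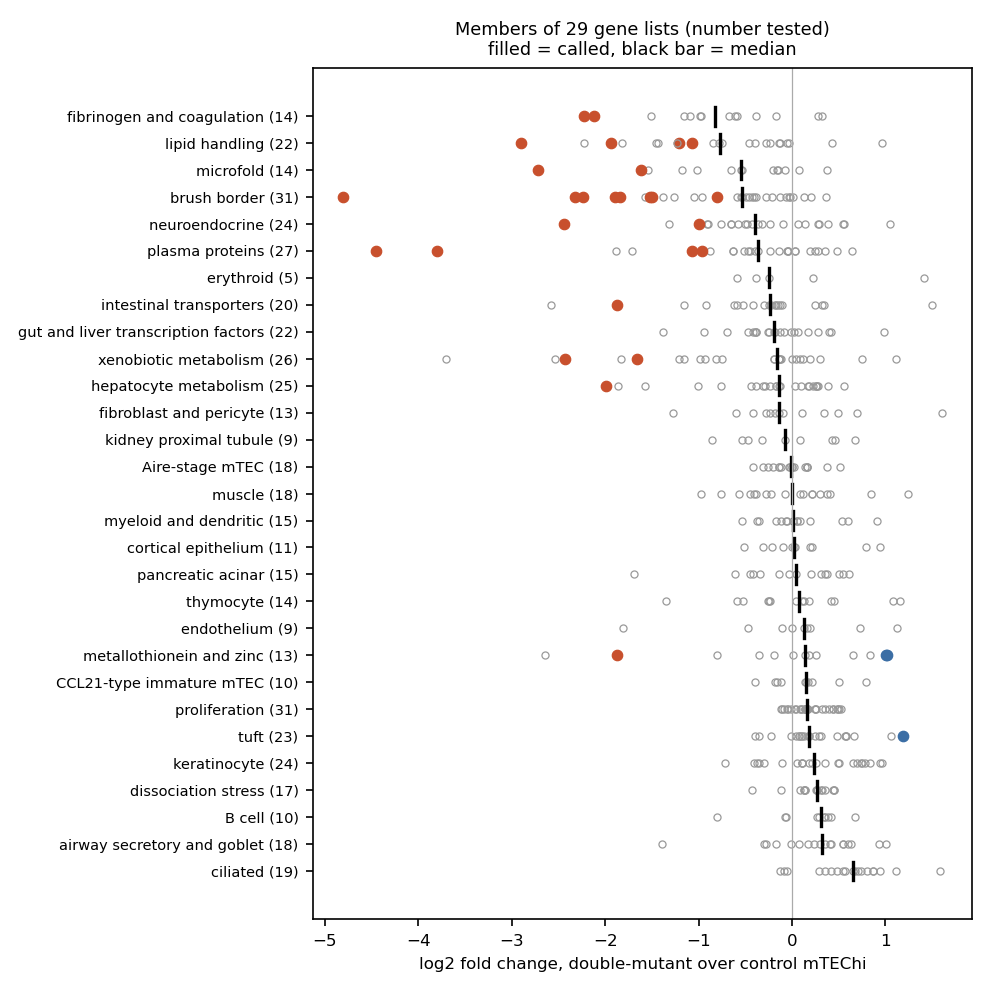
Log2 fold change (x axis) of every tested member of the 29 gene lists (y axis, number tested in brackets), ordered by the median (black bar); red points are called lower, blue called higher, open points not called. The coagulation and lipid lists have the lowest medians (-0.82 and -0.77), Clrn3 of the brush border list is the point furthest left, and the Aire-stage list has a median of -0.01.

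Called genes outside every list numbered 84 of the 110. Ceacam20, a microvillar adhesion molecule of the gut, fell from 25.2 to 5.2 CPM (log2 fold change -2.27 with SE 0.26, edgeR adjusted p = 0.0013). The butyrophilin-like family, whose intestinal members act on gamma-delta T cells, lies on chromosome 17 between 34377132 and 34517352. Btnl6 fell from 15.8, 17.9, 22.4 and 20.2 CPM to 1.6, 3.86, 4.95 and 3.28 CPM (log2 fold change -2.47 with SE 0.33, adjusted p = 0.00342), and its neighbours Btnl1 (82.4 to 29.3 CPM) and Btnl4 (9.89 to 2.15 CPM), chosen after their values were seen, fell too. Btnl4 was not called in 3 of 8 leave-one-out fits (those without control replicate 2, control replicate 3 or double-mutant replicate 1; adjusted p 0.0559 to 0.0901), nor in the fit over 16 libraries. Also chosen after seeing the values, Reg3g, an antibacterial lectin of the gut, went from 2493, 2901, 2150 and 2967 CPM to 795, 1139, 715 and 1105 CPM (log2 fold change -1.49 with SE 0.16, adjusted p = 0.000854), and Lypd8, which keeps flagellated bacteria from the colon surface, from 370 to 105 CPM. Ms4a18, likewise, had 187 reads over the controls and 3 over the double mutants, too few for a fold. Reads of the near-identical Btnl, Ces2, Serpina1, Reg3 and lysozyme copies may be split between them by the counting.

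Far fewer genes were higher. Mt1 and Mt2, metallothioneins that bind zinc and copper, lie next to each other on chromosome 8. Mt1 rose from 225, 201, 198 and 228 CPM to 470, 500, 373 and 378 CPM (log2 fold change 1.02 with SE 0.12, edgeR adjusted p = 0.00148). Mt2 rose from 87.9, 78.0, 97.0 and 97.8 CPM to 219, 210, 139 and 157 CPM (log2 fold change 1.00 with SE 0.16, adjusted p = 0.00923). Double-mutant replicates 1 and 2 had more of both than replicates 3 and 4, and all 4 were above every control. Mt3 (13.4 against 23.9 CPM, adjusted p = 0.155) and Mt4 (35.5 against 56.1 CPM, adjusted p = 0.276) were not called, so 2 of the 4 tested metallothioneins rose. Of the 13 genes in the metallothionein and zinc list, those 2 rose and Slc39a4 fell. The 17 dissociation-stress genes had a median of 0.26 with none called, and summed to 2443 to 3380 CPM in control and 2516 to 3485 CPM in double-mutant libraries. Double-mutant replicates 1 and 2 were also the 2 libraries with the largest share of ribosomal protein counts (2.78% and 2.54%). The part of either in the metallothionein values was not tested.

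The other 5 were Crnn, a cornified-envelope gene (46.0 to 88.4 CPM, log2 fold change 0.94 with SE 0.12, edgeR adjusted p = 0.0028), the iron-binding nuclear protein Pir (11 to 32.4 CPM, log2 fold change 1.55 with SE 0.25, adjusted p = 0.0108), the taste G protein Gnat3, the galectin Lgals3 and Serinc3. Crnn was not called when the spread was estimated over 16 libraries (adjusted p = 0.164). Gnat3, a tuft-cell gene, rose from 18.6, 16.4, 20.8 and 24.0 CPM to 36.0, 35.3, 57.2 and 54.1 CPM (adjusted p = 0.0206), and it was the single one of 23 tuft genes to pass. The median of the tuft list was 0.18, with 4 of 23 negative, and 2 of its genes, Gnat3 and Lrmp, had every double-mutant library above every control. Such non-overlap held for 2.88% of all tested genes. Lrmp (log2 fold change 0.67 with SE 0.19) was not called (edgeR adjusted p = 0.181), and was named after its values were seen, as were Trpm5 (107 and 121 CPM) and Dclk1 (56.0 and 60.4 CPM), which overlapped. Serinc3, a membrane protein that restricts retroviruses, rose from 154, 123, 148 and 142 CPM to 203, 202, 221 and 242 CPM (log2 fold change 0.61 with SE 0.11, adjusted p = 0.0255). It lies on chromosome 2 (163623272 to 163645131), near Hnf4a (163506808 to 163572910). Serinc3 and Lgals3 (34.8 to 61.0 CPM) were not called when any one of control replicates 2, 3 and 4 and double-mutant replicates 1 and 4 was left out (adjusted p 0.0558 to 0.102 and 0.0665 to 0.107), and Gnat3 was not with any one of control replicates 1, 2 and 3 and double-mutant replicate 4 left out (0.0721 to 0.0748). Calm4 was at 51.7 against 114 CPM and was not called (adjusted p = 0.0574).

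The genes that fell were compared with those of wild-type mTECs sorted in an entero-hepato gate (3 libraries) or outside it (3 libraries), which share no library with the mTEChi comparison. In these gates 3822 of 16811 tested genes were higher inside (22.7%) and 3657 lower (21.8%). Of the 110 genes that fell in double-mutant mTEChi, 108 were tested in the gates and 103 of them were higher inside the gate (95.4%), with a median log2 fold change of 2.96. The exceptions included Sytl4 and the repeat-rich gene model Gm10800, which were lower in the gate, and Fgg (log2 fold change 0.09, adjusted p = 0.826 by edgeR) and Fga (0.46, adjusted p = 0.561), which were not called there. Fgb was not called in either comparison (gate log2 fold change 0.38, edgeR adjusted p = 0.789).

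Seen from the gate, its genes shifted down as a whole only slightly. Of 2147 gate genes (called higher inside by a log2 fold change over 1, 12.8% of those tested in the gates), 2057 were tested in mTEChi, where 95 fell (4.62%), 2 rose and 74.3% had a negative log2 fold change, against 48.2% of all tested genes. Their median was -0.23. Of the 801 with a gate log2 fold change over 2, 76 fell (9.49%), none rose and the median was -0.43. Most gate genes thus did not pass the test in mTEChi. Of the genes that were lower in the gate by as much, 2147 were tested, with 1 lower, 2 higher and a median of 0.19. The gate genes called lower numbered 60 without control replicate 4 and 63 without double-mutant replicate 1.

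**Figure D4:**
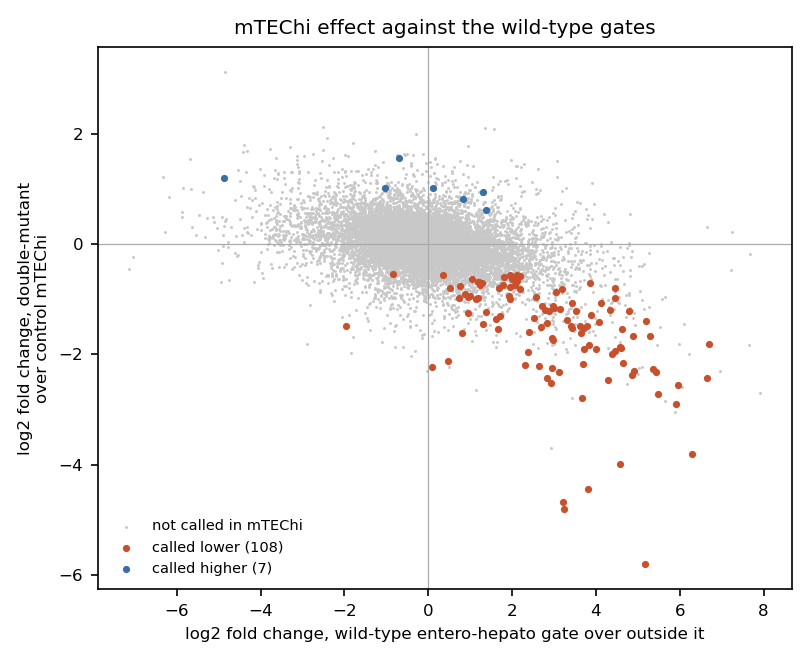
Log2 fold change of double-mutant over control mTEChi (y axis) against that of the wild-type entero-hepato gate over cells outside it (x axis) for genes tested in both; red points are the 108 genes called lower and blue the 7 called higher in mTEChi. Red points lie almost all to the right of 0, and Gnat3 is the blue point furthest left.

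Post-Aire mTEClo, a later medullary stage, were sorted from thymi of the same genotypes (4 libraries each), and an edgeR fit of those 8 libraries called 240 genes lower (1.43% of 16791) and 55 higher (0.328%). Of the 110 genes that fell in mTEChi, 104 were tested in mTEClo, 101 had the same sign there and 53 were also called lower. The shared genes were 48.2% of the mTEChi list and 22.1% of the mTEClo list. Clrn3 (log2 fold change -4.81 in mTEChi and -4.52 in mTEClo), Muc13 (-2.33 and -1.99) and Anks4b (-2.24 and -2.07) had similar values in both. Of the 7 higher genes, 6 had the same sign in mTEClo, and Serinc3 was the one also called there (log2 fold change 0.93, adjusted p = 0.000367). Mt1 (0.15, adjusted p = 0.806) and Mt2 (-0.36, adjusted p = 0.572) were not called in mTEClo, and the difference between subsets passed the test for neither.

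**Figure D5:**
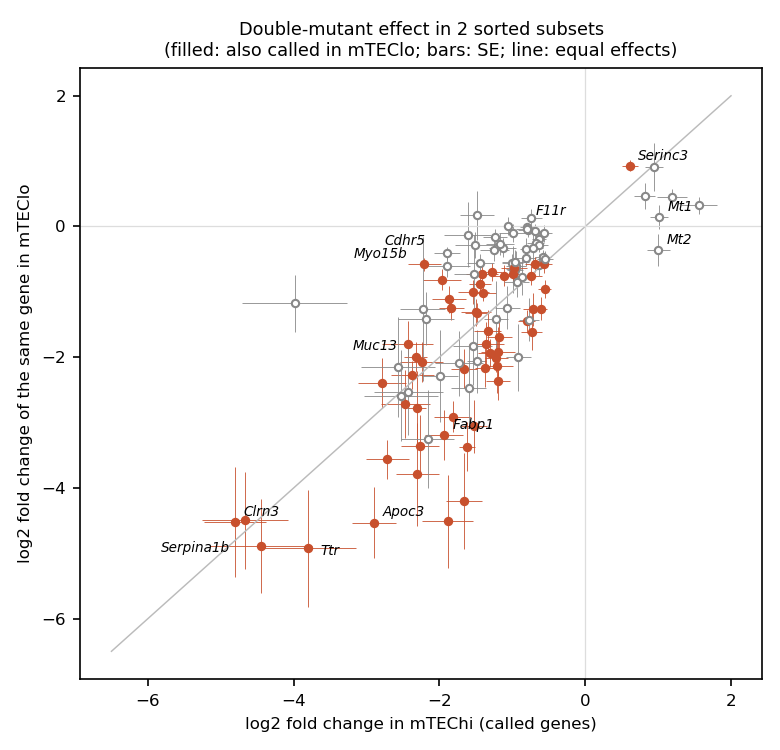
Log2 fold change of double mutant over control in mTEClo (y axis) against mTEChi (x axis) for the called mTEChi genes tested in both, with SE bars and the line of equal effects; filled points were also called in mTEClo. Clrn3 lies near the line, F11r and Cdhr5 lie above it with little change in mTEClo, and Mt1 and Mt2 lie near 0 on the y axis.

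The difference between the subsets was tested in 1 fit over the 16 libraries. Of 20095 genes, 4 had a lower (0.0199%) and 8 a higher (0.0398%) log2 fold change in mTEChi than in mTEClo. Among the 110 genes that fell in mTEChi, 3 differed so, and in each the fall was the greater in mTEChi. The 110 were chosen by their fall in these same mTEChi libraries, so that direction was favoured in advance. F11r, the tight-junction protein JAM-A, fell in mTEChi from 762, 681, 777 and 727 CPM to 413, 462, 443 and 380 CPM (log2 fold change -0.80 with SE 0.10, edgeR adjusted p = 0.00171). In mTEClo it was at 822 and 820 CPM, and the difference of effects was -0.80 (SE 0.11, adjusted p = 0.0167). It held in all 16 fits that left out 1 library.

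Cdhr5 was at 234 CPM in control and 177 CPM in double-mutant mTEClo, where it was not called (adjusted p = 0.0677 by edgeR), and its effects differed by -1.50 (SE 0.21, adjusted p = 0.0167). Without control mTEChi replicate 4 this missed the threshold (adjusted p = 0.0532). Myo15b fell in both subsets, and its effects differed by -1.63 (SE 0.24, adjusted p = 0.0182). That call was lost without control mTEChi replicate 4 (adjusted p = 0.0575), control mTEClo replicate 4 (0.0588) or double-mutant mTEClo replicate 1 (0.0511). For the other 9 genes, no mTEChi change was called. Apoa4, for example, was at 29.6 CPM in control and 1.98 CPM in double-mutant mTEClo (log2 fold change -3.89, adjusted p = 0.00196), against 74.8 and 41.5 CPM in mTEChi, a difference of effects of 3.03 (SE 0.50, adjusted p = 0.0323). The Apoa4 difference held in 6 of the 16 fits that left out 1 library.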

How the data were processed

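Sorted cells (1000 per library) were sequenced as paired ends of 38 bases after 18 PCR cycles, without molecular identifiers, from unstranded cDNA. Reads from a stretch shared by a gene and its antisense partner therefore cannot be told apart. Hnf4aos, the antisense partner of Hnf4a, was counted separately, at 0 to 3 reads per mTEChi library. The authors deposited read counts per gene (whole numbers, not normalized) for 55011 symbols. Per the submitters' processing notes, STAR 2.7.3a, featureCounts and mm10 were used. The gene annotation and how reads were counted are not given in the labels. Positions are from GENCODE M21 (GRCm38).

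The 8 mTEChi libraries were grouped by their labels and tested by the quasi-likelihood method of edgeR 4.0.16 under R 4.3.3 (TMM scaling, filterByExpr with a minimum count of 10 and a minimum total of 15, Benjamini-Hochberg adjustment over all tested genes, threshold 0.05). Values are CPM on TMM-scaled libraries with SD over 4, and log2 fold changes have their standard error (SE). The summed levels of lists and the markers of other cells are CPM of plain totals. The mTEClo and gate comparisons had fits of their own and the difference between subsets a fit of 16 libraries. Alternatives were RLE scaling, DESeq2 1.42.0, voom (limma 3.58.1), other count filters, a replicate block, a fit of 16 libraries, a stricter gate list and leaving out each library. No library pair of a group agreed within sampling noise (chi-square per degree of freedom 8.34 to 15.9 over 12 pairs).

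Named genes were the targeted genes, Aire, 4 given markers (Muc13, Clrn3, Fgg, Mt1), the 12 called genes of largest fold per direction at 10 CPM or more, uncalled genes of smallest p up to 8 per direction, and up to 4 called genes per list, with the other members of a role group. For the difference between subsets they were the 5 of largest value per direction. The genes examined and the 29 lists (562 genes) were chosen with earlier results of these data known. The fit was also tested on simulated data. Some items are not reported here.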

Additional observations from a re-analysis of the deposited data

Results flagged for a closer look

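Effects of the double mutation differed between mTEChi and mTEClo for 12 genes by the edgeR test of the difference (log2 fold change in mTEChi minus that in mTEClo). It was negative for F11r (-0.80), Cdhr5 (-1.50), Myo15b (-1.63) and Pstpip2 (-0.76). It was positive for Zfp423 (2.69), Apoa4 (3.03), the MHC class II gene H2-Eb1 (0.87), the zinc transporter Slc30a2 (1.17), Vim (1.86) and the mitotic gene Birc5 (2.07). Trem2 (6.30) and Reg1 (5.92) were also positive. Double-mutant mTEClo had no or almost no reads of these 2 genes, so their sizes depend on the prior count and are no bounds. All 8 positive genes were lower in double-mutant mTEClo by its own fit, and none was called in mTEChi. In that mTEClo fit Aire was lower too (408 to 193 CPM, log2 fold change -1.08, edgeR adjusted p = 0.0416). Its difference between subsets was not called (adjusted p = 0.154). Of the 18 Aire-stage genes 6 were lower in mTEClo, and the 31 proliferation genes had a median of -0.99 there with 1 called lower. The part of these shifts in the 8 differences was not tested. Of the 12, F11r held in all 16 fits that left out 1 library, Cdhr5 in 15, Myo15b in 13 and Trem2 in 11, and Pstpip2 held in 2.

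A single library stood apart from the other 3 of its group, by Dixon's test at 95%, in 4 of 76 groups tested, where chance gives about 1 in 20. Clrn3 was at 5.25 CPM in double-mutant replicate 4, against 0.781 to 1.28 in the others. Hsd17b6 was at 38.7 CPM in control replicate 4, Fabp1 at 4.07 CPM in double-mutant replicate 4 and Lgals3 at 41.1 CPM in control replicate 1.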

How the results depend on the processing

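Lower and higher calls in mTEChi numbered 110 and 7. DESeq2 called 321 lower and 116 higher, the edgeR fit with no low-count filter 388 and 231, and the fit over 16 libraries 130 and 38. RLE scaling, voom and a minimum count of 20 kept lower calls between 107 and 121. Leaving out 1 library gave 64 to 126 lower and 5 to 62 higher calls. Members of the gene lists called lower and higher numbered 26 and 3, with 48 and 10 by DESeq2 and 61 and 23 without a filter. Gate genes called lower numbered 95, with 236 by DESeq2, 248 without a filter and 60 to 106 with 1 library left out. Gate genes called higher numbered 2, with 10 by DESeq2, 16 without a filter, 4 with the replicate block, 1 in the fit over 16 libraries, 1 to 3 with 1 library left out and 0 in the list at a gate log2 fold change over 2, whose median in mTEChi was -0.43 (others -0.21 to -0.25). Genes differing between the subsets numbered 12, with 349 by DESeq2, 4 by voom, 321 without a filter and 1 to 157 with 1 library left out (157 without double-mutant mTEChi replicate 3, 85 without control mTEClo replicate 1, 1 without control mTEChi replicate 4). The cause of these shifts was not tested.

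Hnf4g was called lower by DESeq2 (log2 fold change -1.39, adjusted p = 0.00267) and without a filter (-1.39, 0.0018), and the leave-out fits gave -1.77 to -1.24. Hnf4a turned positive by voom (0.055) and without control replicate 2 (0.11), control replicate 4 (0.24) or double-mutant replicate 2 (0.14), never called, within a leave-out range of -0.51 to 0.24. With the replicate number as a block, 79 genes were lower and 10 higher, and Pir, Abcg5, Lgals3, Serinc3, Ces2e and Fga lost their calls (adjusted p 0.0607 to 0.109), as did Btnl4. Same-numbered libraries correlated in their deviations at r -0.02 to 0.06, so the numbers were not taken to pair them, and 1 of the 4 numbers matched its own best.

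With 4 libraries a group an uncalled gene is not an unchanged one. Low genes such as Hnf4a, with 7 to 65 reads per library, are limited by depth, and PCR reads without molecular identifiers are not independent molecules.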
